A study of Mus musculus with 2 samples.

Results

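The 48 genes described here copy DNA in S phase or build and run the mitotic spindle. They were taken by symbol from the gene rows of both libraries, where all 48 of 48 were found among 31053 rows. Of these, 24 act in mitosis or the G2 phase before it and are called mitotic members, and 22 act in or before S phase and are called S-phase members. The other members, Ccnd1 and Stmn1, are described apart. Liver endothelial cells were sorted by CD31, after DAPI-stained and CD45-bearing cells were gated out, from 1 adult sph/+ mouse and 1 adult sph/sph mouse of C57BL/6 background, heterozygous and homozygous for the sphinx allele of Gimap5, and each gave 1 library with version 3 of the droplet 3' kit of 10x Genomics. Both mice therefore carry the allele, no wild-type library was analysed here, and the labels give no treatment, sex or exact age. With 1 mouse a group no test between genotypes was possible, and genotype cannot be told apart from library.

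Before a cell divides, cyclin D and its kinase release E2F factors, which switch on the genes for origin licensing, for the replication fork and for the supply of deoxynucleotides. The transcripts of the mitotic genes come later, in G2 and mitosis, under the MuvB complexes with B-MYB and FOXM1, and are broken down again as the cell exits. In the adult liver most sinusoidal endothelial cells rest, and they re-enter the cycle after loss of tissue or injury.

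The promoters of 3 mitotic and 3 S-phase members are shown because their transcripts were the most restricted to dividing cells in each group, among members with at least 200 UMIs (unique molecular identifiers, counted transcripts). Each is the 250 bases before the RefSeq start in build GRCm38.p6, written 5' to 3' along the gene. Capitals mark the letters CCAAT, the box bound by NF-Y, and TTTGAA or TTCGAA, the cell cycle genes homology region (CHR) bound by MuvB complexes, on either strand. No E2F letters lie in these windows. Hmmr, a spindle and hyaluronan-binding protein, lies at chr11:40733438-40733687, minus strand. Ube2c, the ubiquitin-conjugating enzyme of the anaphase-promoting complex, lies at chr2:164769679-164769928, plus strand. Kif11, the motor that pushes spindle poles apart, lies at chr19:37376132-37376381, plus strand. Rrm2, the small subunit of ribonucleotide reductase, lies at chr12:24708004-24708253, plus strand. Tk1, thymidine kinase, lies at chr11:117826015-117826264, minus strand. Cdc45, a part of the replicative helicase, lies at chr16:18811973-18812222, minus strand.
Hmmr: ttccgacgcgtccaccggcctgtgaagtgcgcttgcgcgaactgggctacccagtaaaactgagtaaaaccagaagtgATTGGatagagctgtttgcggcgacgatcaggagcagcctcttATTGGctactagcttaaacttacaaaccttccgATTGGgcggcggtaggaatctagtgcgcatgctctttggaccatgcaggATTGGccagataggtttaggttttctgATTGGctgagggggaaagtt
Ube2c: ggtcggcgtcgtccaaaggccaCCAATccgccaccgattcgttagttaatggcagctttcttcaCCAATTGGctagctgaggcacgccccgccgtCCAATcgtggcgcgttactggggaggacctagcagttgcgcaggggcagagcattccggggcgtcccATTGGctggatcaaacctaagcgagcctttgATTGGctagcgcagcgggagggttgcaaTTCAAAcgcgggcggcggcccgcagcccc
Kif11: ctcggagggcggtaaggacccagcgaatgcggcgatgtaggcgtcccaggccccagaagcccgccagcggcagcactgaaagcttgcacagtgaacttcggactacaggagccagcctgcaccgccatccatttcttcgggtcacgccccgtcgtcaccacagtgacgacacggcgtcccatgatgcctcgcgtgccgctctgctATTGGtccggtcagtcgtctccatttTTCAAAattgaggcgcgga
Rrm2: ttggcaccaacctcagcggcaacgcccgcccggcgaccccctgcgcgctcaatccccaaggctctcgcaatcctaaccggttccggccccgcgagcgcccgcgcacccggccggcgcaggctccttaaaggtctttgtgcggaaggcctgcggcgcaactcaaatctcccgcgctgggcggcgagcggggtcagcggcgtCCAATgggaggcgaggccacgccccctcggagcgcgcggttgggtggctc
Tk1: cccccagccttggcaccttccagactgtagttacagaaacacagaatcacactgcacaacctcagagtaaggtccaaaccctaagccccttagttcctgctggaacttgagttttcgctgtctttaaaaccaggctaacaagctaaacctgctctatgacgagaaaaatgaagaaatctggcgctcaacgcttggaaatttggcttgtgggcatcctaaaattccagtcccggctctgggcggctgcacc
Cdc45: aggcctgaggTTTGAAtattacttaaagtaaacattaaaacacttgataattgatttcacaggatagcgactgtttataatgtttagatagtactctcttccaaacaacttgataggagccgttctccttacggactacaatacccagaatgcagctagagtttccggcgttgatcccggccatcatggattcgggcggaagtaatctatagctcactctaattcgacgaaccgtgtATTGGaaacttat

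Hmmr carried 5 CCAAT boxes and Ube2c 6, of which 1 pair overlaps on opposite strands. A CHR began 29 bases before the start of Ube2c and 19 bases before that of Kif11. Promoter windows were held for 39 of 48 members, 20 of them mitotic and 19 S-phase. CCAAT was present for 18 of 20 mitotic members (90%) and 11 of 19 S-phase members (57.9%), against 33.8% of all 32851 windows. A CHR was present for 9 of 20 mitotic members (45%) and 3 of 19 S-phase members (15.8%), against 17.1% of all windows. The E2F letters TTTCCCGC, TTTCGCGC, TTTGCCGC or TTTGGCGC were found for 1 of 20 mitotic members (5%) and 6 of 19 S-phase members (31.6%), against 1.86% of all windows. A gene with more than 1 window was counted once, and such matches only describe the letters. Ccna2, Aurkb, Tpx2, Kif20a, Mcm4, Gins2, Ccne2, Ccnd1 and Stmn1 had no window.

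After filters and removal of marked doublets, 10162 sph/+ and 10700 sph/sph cells were endothelial-like, with medians of 4366 and 3908 UMIs per cell. In these cells Pecam1 (CD31) stood at 724 and 1046 CPM, the UMIs of a gene scaled to the same total in each library. Ptprc (CD45) had 2 and 3 UMIs in all. Clusters marked by other cell types had been left out first, so these values do not check the sort. Gimap5 stood at 105.5 CPM in sph/+, against 104.3 in sph/sph, and since sphinx is a point mutation this level does not check the genotype. The libraries shared 30 barcode sequences. LSEC-like clusters (liver sinusoidal endothelial cells, marked by Stab2, Clec4g and Fcgr2b) held nearly all sph/+ cells, while continuous vascular-like, lymphatic-like and vein-like clusters held the sph/sph cells, so all but the vein-like subtypes were compared only within 1 library. Intervals in brackets are exact 95% intervals, Poisson for levels and Clopper-Pearson for shares, and cover counting error only.

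Cells with mitotic transcripts were scarce in sph/+ and frequent in sph/sph. A cell was counted as dividing when at least 3 of the 24 mitotic members were detected after every cell had been thinned to 2000 UMIs, which left out 414 sph/+ and 902 sph/sph cells that were too shallow. Dividing cells were 111 of 9748 in sph/+, or 1.14% (0.938 to 1.37), and 683 of 9798 in sph/sph, or 6.97% (6.47 to 7.49). Without thinning the shares were 1.44% and 8.82%. No dividing cell was found among 398 sph/+ cells that carried stellate or hepatocyte RNA, which allows a share of up to 0.754%. Both clusters of these cells had 14 LSEC markers detected, so they are not a background free of endothelial RNA. Their median depth was 4891.5 UMIs, against 4439 in the sph/+ and 4126.5 in the sph/sph endothelial-like cells deep enough to be thinned.

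The cut at 3 members fell just below a low point at 4 members in sph/+, while sph/sph had no such low point there. In sph/+ 28 cells had 2 mitotic members, 8 had 3, 1 had 4, and 82 had 10 or more. In sph/sph 196 cells had 2, 78 had 3, 69 had 4, and 292 had 10 or more, so the class is there one end of a continuous range. At a cut of 5 members the shares were 1.05% in sph/+ and 5.47% in sph/sph. Marked doublets were 18.2% of cells with 3 mitotic members and 11.1% of the others in sph/+, and 18.7% and 14.02% in sph/sph. These were removed, and the part of doublets left among dividing cells was not tested.

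**Figure D1:**
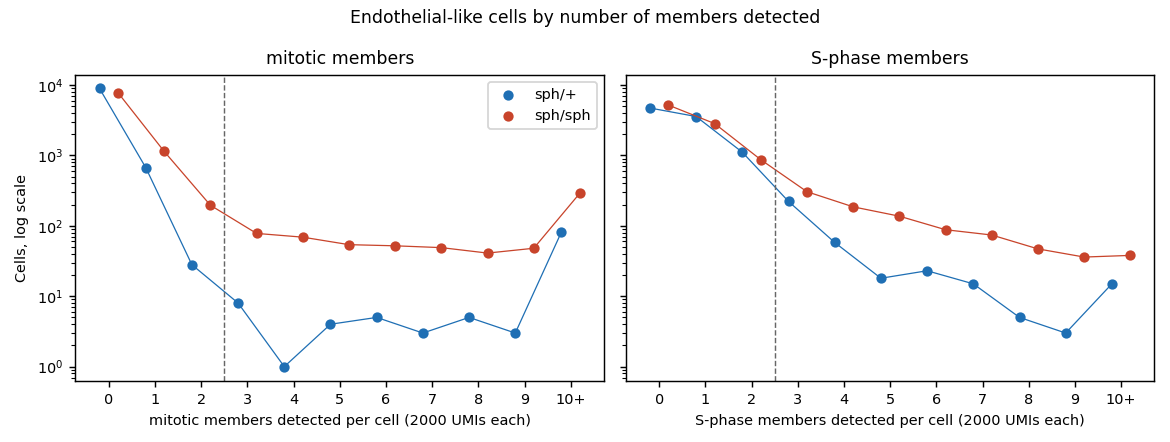
Endothelial-like cells of each library (vertical axis, log scale) by the number of mitotic members (left) or S-phase members (right) detected in 2000 UMIs per cell, with the dashed line at the cut of 3. In sph/+ only 1 cell had 4 mitotic members and 82 had 10 or more, whereas in sph/sph the counts decline without a gap before the 292 cells with 10 or more.

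S-phase members were detected more widely. At least 3 of the 22 were detected in 359 of 9748 sph/+ cells, or 3.68% (3.32 to 4.08), and in 911 of 9798 sph/sph cells, or 9.30% (8.73 to 9.89). Without thinning these shares were 18.4% and 21.2%, so they depended strongly on depth. Among the 398 stellate- or hepatocyte-marked sph/+ cells 9 (2.26%) passed the same cut. Those cells carry LSEC markers too and cannot settle what the signal is. The sph/+ share at this cut is not read as replication. At least 5 were detected in 79 sph/+ cells, or 0.810% (0.642 to 1.01), and in 420 sph/sph cells, or 4.29% (3.89 to 4.71). That stricter cut is used below wherever replicating cells are placed in a subtype.

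Among the 48 members, 24 reached 20 CPM in either library and 14 of these stood 2-fold or more above sph/+ in sph/sph, while 0 were at least 2-fold lower. Over all 7468 genes that reached 20 CPM, 11% were at least 2-fold higher and 10.6% at least 2-fold lower. By group, 11 of 12 mitotic members above that floor were 2-fold higher, but only 2 of 10 S-phase members were. A floor met in either library admits genes through the library where they are high. Ccnb2, Birc5, Cdc20, Cenpe, Tpx2, Prc1, Hells and Tyms passed it only through sph/sph, so their calls are not independent of the floor. The median log2 ratio of sph/sph to sph/+ was 1.17 over all 24 mitotic members and 0.997 over all 22 S-phase members, against -0.07 over the 7468 genes. The S-phase median includes 12 members under 20 CPM, and over the 10 above it the median was 0.17. The counting interval of the fold lay above 1 for 23 of 24 mitotic members and spanned 1 for Bub1b. It lay above 1 for 17 of 22 S-phase members and below 1 for the other 5, which were Mcm3, Pcna, Slbp, Rrm1 and Dut.

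**Figure D2:**
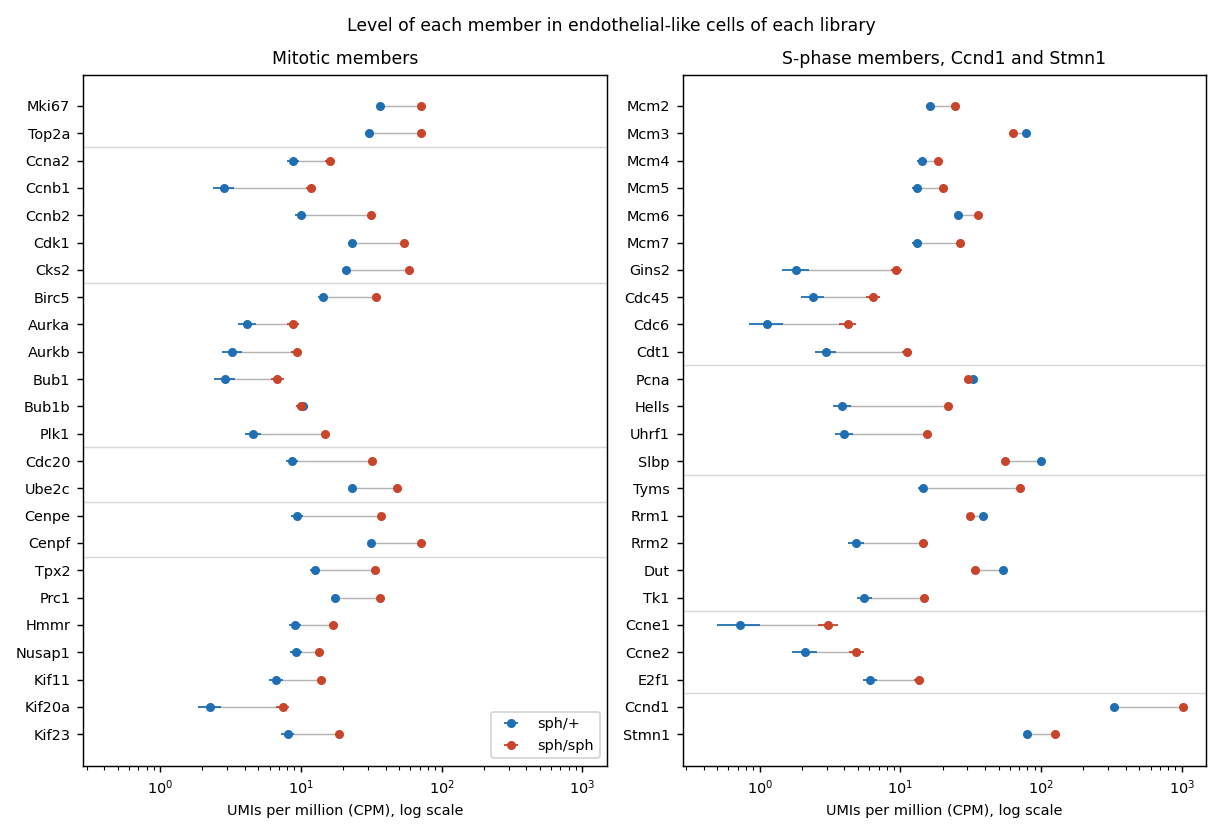
Level of each member in endothelial-like cells on a log scale of CPM, sph/+ in blue and sph/sph in red, with exact 95% Poisson intervals and lines between functional groups. Every mitotic member but Bub1b is higher in sph/sph, while Slbp, Dut, Mcm3, Rrm1 and Pcna are higher in sph/+.

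Among the genes of chromosome structure, Mki67 (chr7:135689784-135716361, on GRCm38 as for all gene positions given), which coats mitotic chromosomes and is the usual marker of cycling cells, stood at 36.6 CPM (34.9 to 38.4) in sph/+, against 71.6 (69.3 to 74.0) in sph/sph. Top2a, the topoisomerase that untangles sister chromatids, stood at 30.8 CPM (29.2 to 32.4) and 72.0 CPM (69.7 to 74.3). Both were about as much higher as the group median, with folds of 1.96 and 2.34. At single cells the gap was wider: Mki67 was detected in 1.27% of thinned sph/+ cells and 5.83% of thinned sph/sph cells (1.61% and 7.93% unthinned), against 0.251% of the stellate- or hepatocyte-marked cells.

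The mitotic kinase Cdk1, with its subunit Cks2 and its B-type cyclins, was higher in sph/sph. Cdk1 stood at 23.04 CPM and 54.1 CPM, a fold of 2.35 (2.19 to 2.52). Cks2 stood at 21.1 CPM and 58.5 CPM, a fold of 2.78 (2.58 to 2.99), and Ccnb2 at 9.99 CPM and 31.4 CPM, a fold of 3.15 (2.84 to 3.50). Ccnb1, which activates Cdk1 at mitotic entry, stood at 2.83 and 11.8 CPM. Ccna2, the cyclin of S phase and G2, had the smallest fold of these partners at 1.81 (1.61 to 2.04).

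The kinases and the chromosomal passenger complex differed among themselves. Birc5 (survivin), a subunit of the passenger complex, stood at 14.3 CPM in sph/+, against 34.3 in sph/sph, and Plk1, the polo kinase, at 4.58 and 14.9 CPM. Bub1b (BubR1, chr2:118598211-118641591), a spindle checkpoint protein, stood at 10.37 CPM (9.47 to 11.3) and 10.1 CPM (9.22 to 10.98) and had the lowest log2 ratio of the mitotic members, -0.04. Only 36.2% of its UMIs in sph/+ came from dividing cells, against 74.5% in sph/sph, and in resting cells its level was 6.72 CPM in sph/+, against 2.41 CPM in the other library. Its share of thinned cells, 1.74% in sph/+, was close to the 1.51% of the marked cells. Those are stellate- and hepatocyte-marked LSECs, so this likeness does not tell expression from background RNA. The resting signal is not read further.

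The genes that lead the cell through anaphase were also higher in sph/sph. Cdc20, the activator of the anaphase-promoting complex, stood at 8.71 CPM and 32.0 CPM, a fold of 3.67 (3.29 to 4.10). Ube2c stood at 23.3 CPM and 48.5 CPM, a fold of 2.08 (1.94 to 2.24). Of the kinetochore proteins, Cenpe, a motor that aligns chromosomes, had the highest log2 ratio of all mitotic members, 1.87, with 9.37 CPM (8.51 to 10.3) in sph/+, against 37.0002 (35.4 to 38.7) in sph/sph. Cenpf stood at 31.6 CPM and 71.2 CPM. Among the 7 spindle proteins and motors, Prc1, which bundles the central spindle, stood at 17.5 and 36.7 CPM, Tpx2, which activates Aurora A, at 12.7 and 33.6 CPM, and Kif23, a motor of cytokinesis, at 8.07 and 18.7 CPM. The remaining mitotic members, Aurka, Aurkb, Bub1, Hmmr, Nusap1, Kif11 and Kif20a, had log2 ratios from 0.50 for Nusap1 to 1.37 for Kif20a.

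Transcripts of the mitotic members sat in dividing cells. With the gene itself left out of the definition, dividing cells held more than 75% of the UMIs of 21 of 24 mitotic members in each library, with medians over the 24 of 93.2% in sph/+ and 90.8% in sph/sph. The highest shares were those of Hmmr, 98.6% in sph/+ and 97.1% in sph/sph. Cdk1 (55.1% and 72.2%) and Cks2 (57.1% and 62.9%) had a larger part of their UMIs outside this class in both libraries. Cks2 was also detected in 2.76% of the marked cells, a share above its 2.41% in sph/+.

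**Figure D3:**
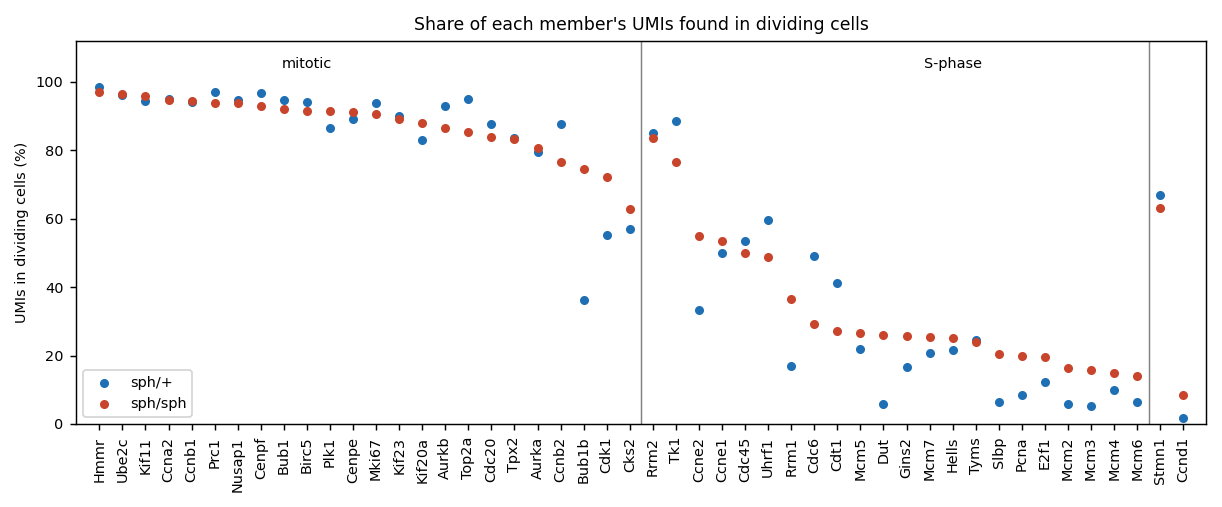
Percent of the UMIs of each member that came from dividing cells, with the member itself left out of the definition, in sph/+ (blue) and sph/sph (red). Mitotic members lie mostly above 75%, with Bub1b, Cdk1 and Cks2 below, while among S-phase members only Rrm2 and Tk1 lie above 75% in both libraries.

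The licensing and helicase genes differed among themselves. Mcm3, a subunit of the MCM2-7 helicase, stood at 78.6 CPM (76.1 to 81.2) in sph/+, against 63.2 (61.1 to 65.4) in sph/sph, a fold of 0.804 (0.767 to 0.843). Mcm6 stood at 25.7 and 35.6 CPM and Mcm2 at 16.2 and 24.3 CPM, with folds of 1.38 and 1.496. The other helicase subunits Mcm4, Mcm5 and Mcm7 had folds of 1.30, 1.53 and 2.03. The loaders and activators of the helicase, which were low in sph/+, had larger folds: Gins2 stood at 1.81 and 9.37 CPM, Cdt1 at 2.96 and 11.2 CPM, Cdc6 at 1.13 and 4.23 CPM, and Cdc45 at 2.38 and 6.41 CPM.

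Of the fork and chromatin genes, Slbp, which binds the stem-loop of histone messages, had the lowest log2 ratio of all S-phase members, -0.84, and Hells, a chromatin remodeller of the SNF2 family, the highest, 2.24. Slbp stood at 99.9 CPM (97.1 to 102.8) in sph/+, against 55.5 (53.5 to 57.6) in sph/sph. Hells stood at 3.85 CPM (3.31 to 4.46) and 21.9 CPM (20.7 to 23.3). Pcna, the sliding clamp of the polymerases, stood at 32.9 and 30.5 CPM, a fold of 0.928 (0.864 to 0.996), and Uhrf1, which brings maintenance methylation to new DNA, at 3.96 and 15.5 CPM.

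The genes of nucleotide supply split in the same manner. Tyms (thymidylate synthase, chr5:30058202-30073617) stood at 14.4 CPM (13.3 to 15.5) in sph/+, against 70.8 (68.5 to 73.1) in sph/sph, a fold of 4.92 (4.53 to 5.35). Dut, the dUTPase, stood at 53.3 and 34.1 CPM, a fold of 0.639 (0.601 to 0.680), and Rrm1, the large subunit of ribonucleotide reductase, at 38.4 and 31.1 CPM, a fold of 0.810 (0.757 to 0.867). Its partner Rrm2, which is made in S phase, stood at 4.85 and 14.6 CPM, and Tk1 at 5.56 and 14.8 CPM. Among the G1/S drivers, the transcription factor E2f1 stood at 6.09 and 13.5 CPM, and the E-type cyclins Ccne2 and Ccne1 at 2.09 and 4.87 CPM and at 0.724 and 3.08 CPM.

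Most S-phase members were not confined to dividing cells. Dividing cells held a median of 21.2% of the UMIs over the 22 members in sph/+ and 26.0% in sph/sph. They held 85.0% and 83.6% of Rrm2 and 88.4% and 76.7% of Tk1, but 6.39% and 20.5% of Slbp, 5.14% and 15.7% of Mcm3 and 5.72% and 26.1% of Dut. In sph/+ the shares of thinned cells with Slbp (17.1%), Mcm3 (13.9%) and Dut (9.74%) were close to those of the stellate- or hepatocyte-marked cells (16.1%, 15.8% and 10.1%), and these marked cells are themselves partly endothelial. The level of Slbp nevertheless differed between sph/+ clusters, from 44.4 CPM (25.9 to 71.1) in the vein-like to 138 CPM (130 to 147) in the Kit- and Stab2-led cluster.

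In resting cells, with fewer than 3 mitotic and fewer than 3 S-phase members, some S-phase members still differed between libraries, and others had fold intervals that spanned 1. Tyms stood at 9.86 CPM in resting sph/+ cells and 51.4 CPM in resting sph/sph cells, and Hells at 2.005 and 9.33 CPM. Slbp stood at 93.7 and 42.5 CPM, Dut at 49.8 and 20.9 CPM, and Rrm1 at 31.3 and 17.3 CPM. The fold in resting cells was near 1 for the helicase subunits Mcm2 (1.07, 0.953 to 1.20), Mcm4 (0.995, 0.878 to 1.13), Mcm5 (0.937, 0.809 to 1.09) and Mcm6 (1.06, 0.976 to 1.16), and the intervals of Cdc45 and Ccne2 also spanned 1. Over all cells, Tyms had levels from 30.7 CPM (22.7 to 40.6) to 108.6 CPM in the 11 sph/sph clusters and from 8.87 to 27.3 CPM (23.6 to 31.3) in the 7 sph/+ clusters, so the lowest sph/sph and the highest sph/+ cluster had overlapping intervals.

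Within dividing cells the direction was the opposite for most mitotic members. Of 24, 22 had a lower CPM in dividing sph/sph than in dividing sph/+ cells, with a median log2 ratio of -0.68. Over the 7725 genes at 20 CPM in dividing cells the median was -0.18, with 10.0% at least 2-fold higher and 14.4% at least 2-fold lower. The direction was not particular to mitotic members: 16 of 22 S-phase members were also lower, with a median of -0.45. Mki67 stood at 1748 CPM (1664 to 1836) in dividing sph/+ cells and 842 CPM (814 to 872) in dividing sph/sph cells, and Nusap1, a microtubule bundler, at 421 and 163 CPM, the lowest log2 ratio (-1.36). Cenpe, at 405 and 443 CPM, and Ccnb1, at 128 and 144 CPM, were the only mitotic members that were not lower. A median of 12 mitotic members was detected per dividing sph/+ cell and 8 per dividing sph/sph cell.

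Depth and the cut moved with this difference. Dividing sph/+ cells had a median of 8692 UMIs, against 4423 in the other sph/+ cells, whereas dividing sph/sph cells had 4878 against 4069. When at least 8 other mitotic members were required, 18 of 24 members were still lower in sph/sph and the median log2 ratio was -0.38, with Mki67 at -0.77 and Cenpe at 0.39. The part that cell depth and cells near the cut have in the difference was not tested further.

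**Figure D4:**
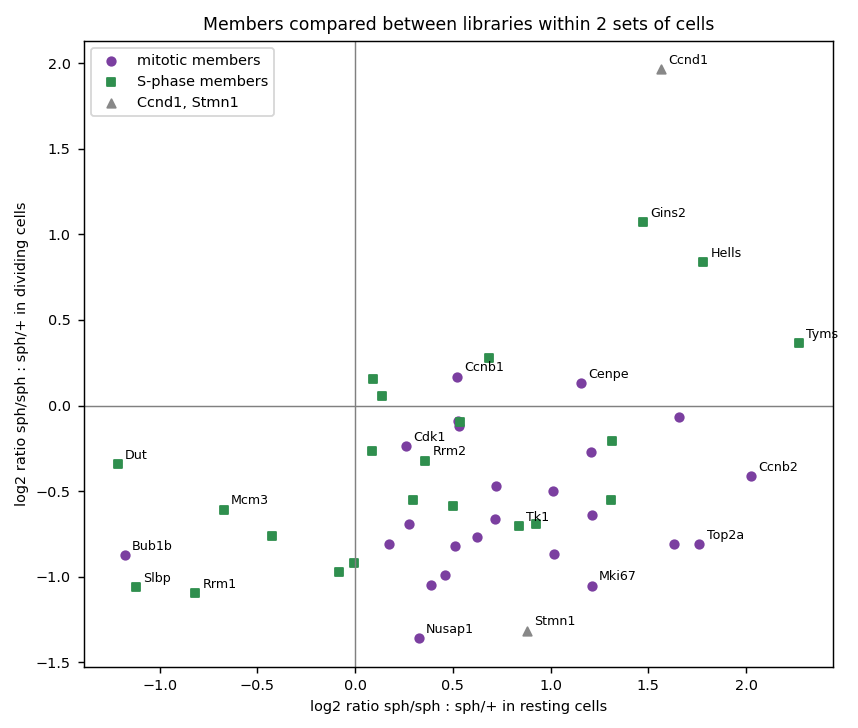
Log2 ratio of sph/sph to sph/+ for each member in resting cells (horizontal) and in dividing cells (vertical). Most mitotic members lie to the right and below 0, Slbp, Dut, Rrm1 and Mcm3 lie to the left, and Tyms, Hells, Gins2 and Ccnd1 are higher in sph/sph in both sets of cells.

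Cyclin D1 followed neither group. Ccnd1 (chr7:144929931-144939925), the cyclin that responds to growth signals in G1, stood at 331 CPM (326 to 337) in sph/+, against 1014 (1005 to 1022) in sph/sph, a fold of 3.06 (3.01 to 3.12). Only 1.78% of its UMIs in sph/+ and 8.52% in sph/sph came from dividing cells, and in resting cells it stood at 328 and 974 CPM. It was detected in 40.9% of thinned sph/+ and 75.1% of thinned sph/sph cells, and in 51.3% of the marked sph/+ cells. Its level ran from 28.7 CPM in the vein-like to 445 CPM in the Kit- and Stab2-led cluster of sph/+, and from 299 CPM in the Nupr1-led lymphatic-like to 1765 CPM in the angiogenic-like cluster of sph/sph.

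Stmn1, a tubulin-binding protein that frees microtubules for the spindle, was closer to the mitotic members. It stood at 79.0 CPM and 124.8 CPM, a fold of 1.58 (1.52 to 1.64), and dividing cells held 66.9% of its UMIs in sph/+ and 63.1% in sph/sph. In dividing cells its CPM was lower in sph/sph, at 1015 CPM against 2529 CPM in sph/+.

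In sph/+ dividing cells were concentrated in 1 LSEC-like cluster. The cluster led by Kit and Stab2, with Mrc1 and Clec1b among its leading genes, had 76 dividing cells of 1638, or 4.64% (3.67 to 5.77). It held 68.5% of the dividing sph/+ cells but 16.8% of the endothelial-like cells. The cluster led by Flrt1 and Aass followed with 22 of 2996, or 0.734% (0.461 to 1.11). Few cells divided in the clusters named for an end of the lobule. The central-side cluster led by Wnt2 and Rspo3 had 4 of 1952 (0.205%). The portal-side clusters had 4 of 2218 (0.180%, led by Msr1 and Ntn4) and 2 of 404 (0.495%, led by Nrg1 and Adgrg6). The Kit- and Stab2-led cluster itself leaned to the central side, with the central-side markers Kit and Gatm among its leading genes. Its non-dividing cells had 4392 CPM of 9 central-side markers, against 3469 CPM over all non-dividing LSEC-like cells. For 9 portal-side markers the levels were 1043 and 2265 CPM. The dividing cells of this cluster had 2064 CPM of the central-side and 801 CPM of the portal-side markers, so the higher central-side level holds for its non-dividing cells only. Replicating cells, with at least 5 S-phase members, followed the same order at its top, with 3.05% in the Kit- and Stab2-led cluster and 0.601% in the Flrt1-led cluster.

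That concentration depended on how the cells were grouped. The members and other cycle genes were kept out of the clustering, but genes outside these lists can still bring dividing cells together. When the sph/+ library was clustered alone, 86 of 100 cells of 1 cluster were dividing, and that cluster was led by Pde5a and Gmfg. When clusters were made from cells with at most 1 mitotic and 1 S-phase member and every other cell was placed by its 15 nearest neighbours among them, the highest sph/+ share was 2.26%, in the 3413 thinned cells of a group led by Gm10600, Stab2 and Gatm. In that placement the Msr1-led group had 0.686%, the Wnt2- and Rspo3-led group 0.466%, and the Ntn4- and Adgrg6-led portal group 0 of 845, which allows up to 0.355%.

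In sph/sph dividing cells were spread over most subtypes. The highest share was that of the angiogenic-like cluster, led by Angptl4, Apln and Pgf with the immune gene Tnfrsf9 among its leading genes, at 120 of 1136, or 10.6% (8.84 to 12.5). The inflamed cluster led by Cxcl10, Ubd and Cxcl9 followed with 9.98% (7.74 to 12.6) and the cluster led by Aplnr and C1qtnf9 with 9.94% (8.24 to 11.9). These 3 intervals overlapped, as did those of the Nupr1-led lymphatic-like cluster (9.09%) and of the cluster led by the heat shock gene Hspa1a with Unc5b and Esm1 (8.40%). The leading places of the angiogenic-like and inflamed clusters were not kept in other groupings. With the library clustered alone, the Angptl4-led cluster had 6.62% and the Cxcl10-led cluster 5.57%, against 21.8% in a cluster led by Aplnr and Apln and 14.7% in one led by Hspa1a. With clusters from non-cycling cells they had 6.31% and 5.74%. The cluster led by Lpl and Rgcc, the most numerous, had 164 of 2287, or 7.17% (6.15 to 8.31).

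The other clusters had lower shares. The arterial-like cluster led by Igfbp3 and Cxcl12 had 4.03% (2.92 to 5.41), the large-vessel cluster led by Vwf and Gja5 3.12% (1.36 to 6.06), and the unnamed endothelial cluster led by Sprr2b and Tubb3 4.70% (3.30 to 6.48). The H19-, Mmrn1- and Prox1-led lymphatic-like cluster had 15 dividing cells of 1023, or 1.47% (0.823 to 2.41). Without thinning its share was 4.26%. Vein-like cells were the only subtype with at least 50 thinned cells in both libraries, and 0 of 65 divided in sph/+, which allows up to 4.62%, against 12 of 222, or 5.41% (2.82 to 9.25), in sph/sph. The limit of 4.62% and the Clopper-Pearson limit of 5.52% both lie inside the sph/sph interval. At this depth these shares therefore show no difference within the vein-like cells. The summed level of the mitotic members did differ there. It was 15.7 CPM (5.75 to 34.1) in sph/+, from 6 UMIs, and 398 CPM (366 to 432) in sph/sph, from 565 UMIs. These intervals cover counting error only, and how many cells carried these UMIs was not tested.

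Replicating cells were placed somewhat differently from dividing ones in sph/sph. The Aplnr- and C1qtnf9-led cluster had the highest share with at least 5 S-phase members, 8.94%, and the angiogenic-like and inflamed clusters had 6.78% and 6.76%. The Lpl- and Rgcc-led cluster had 3.104% and the arterial-like cluster 2.69%. The large-vessel cluster had 0.391% and the H19-led lymphatic-like cluster 1.27%. In the same placement a group led by Hspa1a and Aplnr was highest for both measures, at 12.5% dividing and 8.88% replicating, and the arterial-like group led by Igfbp3 had 1.32% dividing.

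**Figure D5:**
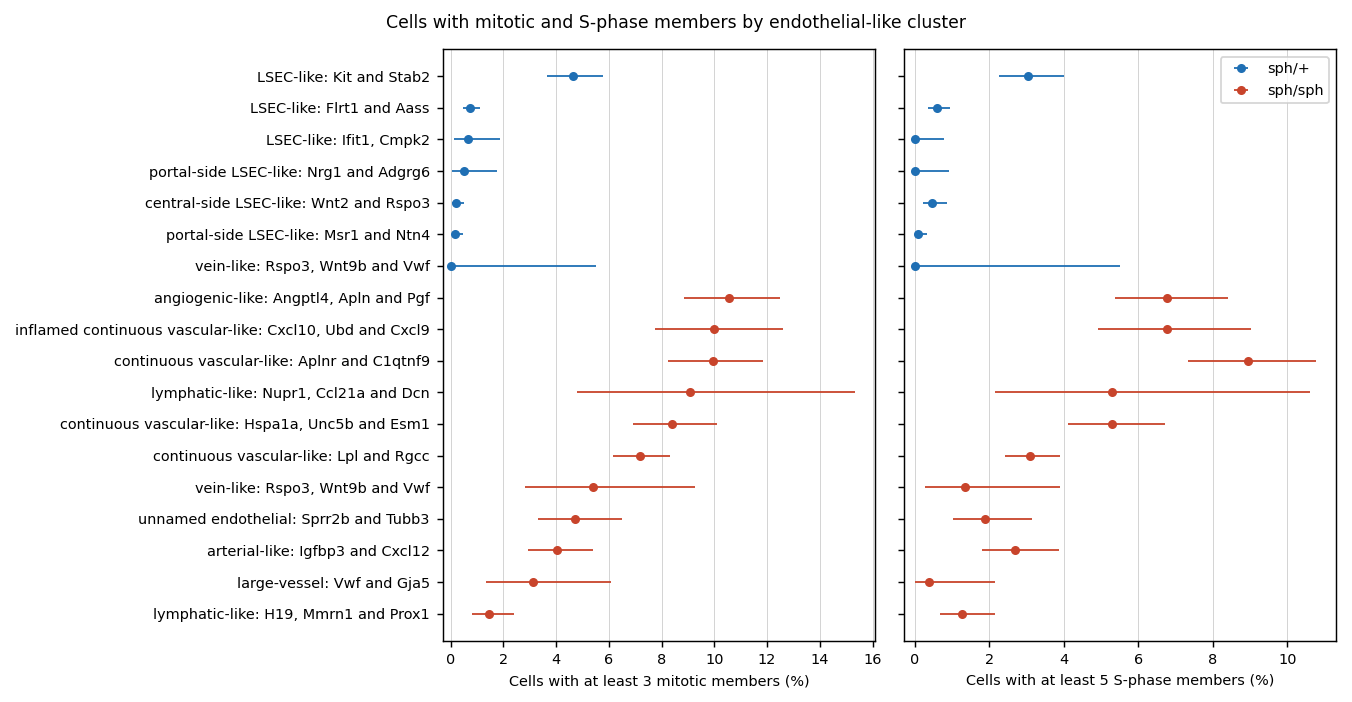
Percent of cells with at least 3 mitotic members (left) and at least 5 S-phase members (right) in each endothelial-like cluster of sph/+ (blue) and sph/sph (red), at 2000 UMIs per cell, with exact 95% binomial intervals. In sph/+ the Kit- and Stab2-led cluster stands above the others, and in sph/sph the angiogenic-like, inflamed and Aplnr-led clusters are at the top and the H19-led lymphatic-like cluster is at the bottom for mitotic members.

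Single mitotic and S-phase genes followed the shares in part. Mki67 stood at 169 CPM (160 to 179) in the Kit- and Stab2-led cluster, against 6.11 CPM in the Msr1-led portal-side cluster and 5.11 CPM in the central-side cluster. In sph/sph it ran from 8.69 CPM (6.99 to 10.7) in the H19-led lymphatic-like cluster to 161 CPM (146 to 178) in the inflamed cluster. Hells ran from 5.41 CPM in the H19-led lymphatic-like cluster to 44.2 CPM in the Aplnr-led cluster. In sph/+ every member but Mcm6 was highest in the Kit- and Stab2-led cluster. Mcm6 was highest in the vein-like cells, at 44.4 CPM (25.9 to 71.1). In sph/sph most mitotic members were highest in the Aplnr-led, angiogenic-like, inflamed or Nupr1-led cluster. Cdc20 was highest in the Lpl- and Rgcc-led, Kif20a in the vein-like and Bub1b in the Sprr2b-led cluster.

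The overlap of S-phase and mitotic transcripts in single cells depended on the cut. Counting cells with at least 5 S-phase members or at least 3 mitotic members, sph/+ had 36 with S-phase members only, 43 with both and 68 with mitotic members only. In sph/sph the numbers were 235, 185 and 498. Cells with both were 29.3% of these in sph/+ and 20.2% in sph/sph, but at a cut of 3 S-phase members the order turned, with 16.6% and 21.3%. In the inflamed cluster both were found in 27 of 77 such cells (35.1%), and in the Lpl- and Rgcc-led cluster in 33 of 202 (16.3%). In the latter cluster 64.9% had mitotic members only.

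Dividing cells kept the genes of their subtype at a reduced level in CPM. They held more UMIs than the others, with medians of 8692 against 4423 in sph/+ and 4878 against 4069 in sph/sph. A lower CPM is thus a smaller part of the cell's UMIs and need not mean fewer transcripts per cell. In dividing LSEC-like cells of sph/+ the summed level of 14 LSEC markers was 0.611 times that of the other LSEC-like cells (0.601 to 0.622). The 9 central-side markers stood at 0.598 times, the 9 portal-side markers at 0.477 times and the 11 arterial markers at 0.401 times. The 15 continuous vascular markers stood at 0.536 times, so the reduction was not particular to LSEC genes. The 12 angiogenic markers stood at 0.961 times, with an interval of 0.884 to 1.04 that spans 1. Among single markers, the scavenger receptors Lyve1 (1.17 times) and Mrc1 (0.929 times) were near the level of the other cells, but within the Kit- and Stab2-led cluster they stood at 0.701 and 0.746 times. Within that cluster the LSEC markers stood at 0.497 times and the arterial markers at 0.522 times. There the central-side markers, at 0.470 times, were reduced more than the portal-side markers, at 0.768 times, the reverse of the order over all LSEC-like cells. Over all LSEC-like cells the portal-side gene Ntn4 stood at 0.342 times, Msr1 at 0.383 times and the arterial connexin Gja4 at 0.225 times. Within the Kit- and Stab2-led cluster Gja4 stood at 0.1505 times and Msr1 at 1.10 times.

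In dividing continuous vascular-like cells of sph/sph the 15 continuous vascular markers stood at 0.730 times the level of the others, the 11 arterial markers at 0.572 times and the 12 angiogenic markers at 0.848 times. The 14 LSEC markers stood at 0.727 times, so here too the reduction was not particular to the genes of the subtype. Over these pooled cells Apln, the apelin ligand, stood at 1.14 times and the basement membrane gene Nid2 at 1.29 times, and within the Hspa1a-led cluster Nid2 stood at 0.829 times. Within the Lpl- and Rgcc-led cluster the arterial markers stood at 0.618 times and Apln at 1.02 times, and within the Hspa1a-led cluster at 0.741 and 0.781 times. Leukocyte genes were nearly absent from dividing cells: Ptprc had 0 UMIs in both libraries, 9 of 10 lymphocyte markers were at 0 in each, and the 7 neutrophil markers had 18 UMIs in sph/sph and 0 in sph/+. The 10 macrophage markers summed to 24.6 CPM in dividing and 28.7 CPM in other sph/+ cells. Macrophage-marked and other marked clusters had been left out beforehand, so these low levels partly follow from that choice of cells.

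Other genes of the same processes are counted beside all 7468 genes at 20 CPM, of which 11% were 2-fold higher and 10.6% 2-fold lower. The counts of lower genes in the fork and mitosis lists were near that share and are not read further. Cks1b, Sgo2a, Cdca8 and Hist1h2ae passed the floor only through sph/sph, so their calls are not independent of it. Of 51 further replication fork genes, 19 reached 20 CPM, 0 were 2-fold higher and 2 were 2-fold lower in sph/sph, among them the single-strand binding subunit Rpa1 (57.3 and 27.8 CPM). The histone chaperone Nasp stood at 27.7 and 53.6 CPM. Of 62 further mitosis genes, 20 reached 20 CPM, 5 were 2-fold higher and 2 lower. Cks1b stood at 8.79 and 35.4 CPM, Sgo2a, a protector of cohesin, at 7.28 and 23.52 CPM, and the passenger protein Cdca8 at 9.20 and 27.5 CPM. Of 12 replication-dependent histones, 5 reached 20 CPM and 3 were 2-fold higher, and 86.9% of Hist1h2ae UMIs in sph/sph came from dividing cells, but only 9.72% of Hist1h2bc and 8.23% of Hist1h1c UMIs did.

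Of 19 G1 regulators, 13 reached 20 CPM, with 4 at least 2-fold higher and 1 at least 2-fold lower. For this and the next 2 lists, the shares over all measured genes were 11% higher and 10.6% lower. Mycn, Myc, Tfdp1, Cdkn2a and Eda2r passed the floor only through sph/sph, so their calls are not independent of it. Mycn stood at 0.383 CPM in sph/+, against 24.5 in sph/sph, Myc at 1.17 and 27.8 CPM, and Tfdp1, the E2F partner, at 3.98 and 22.1 CPM. Of 7 inhibitors of the cyclin-dependent kinases, 6 reached 20 CPM, with Cdkn2a (5.37 and 40.3 CPM) and Cdkn1a, which encodes p21 (126.9 and 360.5 CPM), higher and Cdkn1c (110.7 and 48.5 CPM) lower in sph/sph. Of 11 targets of p53, 10 reached 20 CPM and 3 were 2-fold higher, Phlda3 (22.2 and 155.5 CPM), Btg2 (201 and 678 CPM) and Eda2r (6.41 and 21.9 CPM).

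In sph/+ Cdkn1a was high in the dividing cells themselves. It stood at 847 CPM (790 to 907) in dividing and 111 CPM (108 to 114) in resting sph/+ cells, and at 472 CPM (451 to 494) and 357 CPM (351 to 362) in sph/sph. Cdkn2a stood at 81.1 and 3.72 CPM in dividing and resting sph/+ cells and at 62.9 and 39.9 CPM in sph/sph. Cdkn1c showed the reverse in both libraries, with 44.1 against 112.7 CPM in sph/+ and 18.8 against 52.9 CPM in sph/sph.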

How the data were processed

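Endothelial-like cells of 1 sph/+ and 1 sph/sph library were analysed. The authors deposited gene by barcode matrices of unnormalized UMI counts, made with Cell Ranger 3.0 on build mm10 per the submitters' processing notes and with software version 3.1.0 per the file headers. The annotation release is not given in the sources used here. In all, the libraries held 64460283 and 68983780 UMIs in 13136 and 16386 barcodes.

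Cells with at least 500 genes, at least 1000 UMIs and at most 15% mitochondrial UMIs were kept. Scrublet's automatic threshold marked too few doublets, so the highest scores were removed at a rate of 0.8% per 1000 cells, 10.9% and 13.5% of cells. Cells of both libraries were clustered with scanpy 1.11.5 and leidenalg 0.10.2 (2000 variable genes, 30 components, 15 neighbours, resolution 1.0), without cell cycle genes and genes correlated with cycle scores above 0.15, and named from fixed markers. Counts were summed per library and given as CPM, and log2 ratios used a pseudocount of 1 CPM. A gene counted as measured at 20 CPM in either library. For shares of cells each cell was thinned to 2000 UMIs. In levels by cell class, resting cells had fewer than 3 mitotic and fewer than 3 S-phase members. Intervals used scipy 1.17.1. The steps were tested on simulated data.

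Values are given in full for the 3 members of each role with the most UMIs, for the highest and lowest log2 ratio of each group, and for up to 3 genes of each other list with the largest ratio. Other genes were named after their values were seen. The values of 1 gene that this rule names are not reported here. The members and lists were chosen with earlier results of these data known. Promoter windows are from RefSeq. Cells marked by other cell types were left out.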

Additional observations from a re-analysis of the deposited data

Results flagged for a closer look

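Mitotic transcripts also appeared in cells outside the endothelial-like classes. Among erythroid-marked sph/sph cells, 16 of 107, or 14.95%, had at least 3 mitotic members, where a count of 0 would allow up to 2.80%. Among hepatocyte-marked continuous vascular cells of sph/sph the number was 17 of 313, or 5.43%, where a count of 0 would allow up to 0.958%. Among macrophage-marked sph/+ cells it was 8 of 195, or 4.10%, where a count of 0 would allow up to 1.54%. These cells are in none of the shares above, and whether they are doublets was not tested.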

How the results depend on the processing

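In the alternatives run the medians kept their sign, and the shares of all endothelial-like cells stayed higher in sph/sph. The count of 2-fold higher members and the highest share of a cluster did not hold in all of them. The 14 members at least 2-fold higher became 27 of 45 when genes were measured at 5 CPM (13.1% of all genes) and 29 of 48 without a filter (9.61%). Without cells holding at least 3 mitotic or 3 S-phase members the count was 3, beside 10.8% of all genes. The number of members measured in those cells is not given, so no excess over all genes is shown there. Mcm4 and Mcm5 had log2 ratios of 0.35 and 0.58 over all cells and -0.01 and -0.08 in resting cells. The fold intervals of both spanned 1 in resting cells, so no turn is shown. The median log2 ratio of the mitotic members was 1.67 with cells weighted equally, 0.91 with a pseudocount of 5 CPM, 1.44 without lymphatic-like cells and 0.60 without the cycling cells. That of the S-phase members was 0.54 with the pseudocount of 5 CPM and 0.25 without the cycling cells. The dividing share of sph/+ was 1.44% without thinning, 1.43% at 2 members and 0.432% without the Kit- and Stab2-led cluster. In sph/sph it was 7.59% without lymphatic-like cells, 5.34% at 1000 UMIs, 8.82% without thinning, 8.97% at 2 members and 5.47% at 5. The share with S-phase members in sph/+ was 1.16% at 1000 UMIs, 18.4% without thinning, 15.1% at 2 members, 0.810% at 5 and 2.82% without the Kit- and Stab2-led cluster. In sph/sph it was 9.98% without lymphatic-like cells, 4.20% at 1000 UMIs, 21.2% without thinning, 18.2% at 2 members, 4.29% at 5 and 8.07% without the Aplnr-led cluster. The highest dividing share of a cluster in sph/+ was 86.0% with the library clustered alone, 2.12% at resolution 0.5, 100% with cycle genes kept in and 2.26% with clusters from non-cycling cells. In sph/sph it was 21.8% alone and 97.8% with cycle genes kept in. Leaving out the cycling cells or 1 cluster, and the clusters from non-cycling cells, were chosen after seeing the data. The causes of these shifts were not tested. No paired analysis was possible because each group has 1 library and no test was run.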
